A study of Arabidopsis thaliana with 12 samples.

Results

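CML30 and AT3G54930 are 2 signalling genes of Arabidopsis thaliana that gave a higher array signal after light was returned to herbicide-treated plants. CML30 (locus AT2G15680, probe 1479) encodes a calmodulin-like protein, and AT3G54930 (probe 364) encodes a regulatory subunit of protein phosphatase 2A (PP2A). They are 2 of the 3439 probes in the deposited table and 2 of the 692 probes, for 691 genes, that the platform annotation pairs with 1 gene each. Each gene was on 1 such probe, and 0 probes with several genes carried either of them. Both were picked because their signal rose in light, so every light and dark value of theirs below is a description, given with no test. RefSeq lists 1 transcript for CML30 and 3 for AT3G54930, and the files do not say which of these a probe detects.

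The RNA came from wild-type plants of the Landsberg ecotype, and the labels name no organ. All 12 samples, dark and light alike, were treated with 500 µM bromoxynil, a nitrile compound used as a herbicide, which stops the flow of electrons out of photosystem II. The dark group (n = 6) was kept 12 h in darkness, and the light group (n = 6) had 30 min of light after such a dark period. Samples are numbered 1 to 6 in each group, the labels do not say that they are separate plants, and herbicide-free plants were not analysed here.

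Calmodulin-like proteins bind calcium ions through EF-hand motifs and pass calcium signals on to target proteins. In plants, changes of light are among the stimuli that shift free calcium in the cytosol and the chloroplast stroma. A fusion of Arabidopsis CML30 was found in mitochondria. PP2A is a serine/threonine phosphatase built of a scaffold (A), a catalytic (C) and a regulatory (B) subunit, and the regulatory subunit sets where the enzyme acts and on which substrates. AT3G54930 belongs to the B' family of these subunits. In Arabidopsis leaves, PP2A is known for the dephosphorylation that activates nitrate reductase when light returns.

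The table gives the brightness of each spot in relative, linear units. Light 1 and light 2 differed in scale from the rest: their medians over all probes were 3.88 and 3.90, and those of the other 10 samples lay between 0.559 and 0.654. The highest deposited value was 48.2 in light 1, 47.6 in light 2 and 100 in each of the other 10, so the deposited values may already be scaled. For that reason the 12 samples were quantile normalised on the log2 scale, and the log2 intensities below are on that common scale. In addition, samples 1 and 2, 3 and 4, and 5 and 6 of a group were more alike than other samples (consensus correlation within these pairs 0.669), so the 6 samples of a group may not be 6 independent plants. Bulk RNA cannot tell a change of RNA per cell from a change in the number of cells that hold it.

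CML30 was higher in light in the table as deposited, before the normalisation done here. In the dark its deposited intensity was 0.583, 0.543, 0.778, 0.712, 0.639 and 0.599 in samples 1 to 6. In light it was 6.29 and 6.68 in samples 1 and 2, and 1.08, 0.931, 0.941 and 0.881 in samples 3 to 6. The groups did not overlap, also among samples 3 to 6, where the medians over all probes were lower in light than in the dark. The share of all probes without overlap was not counted on the deposited scale, where light 1 and light 2 stand high for most probes.

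Dividing each deposited value by the median of its own sample sets the sample medians equal. It leaves other differences in place: light 1 and light 2 had the highest medians but the lowest maxima, so their values were also spread differently. On this measure CML30 was 0.998 ± 0.131 in the dark (SD, n = 6), with samples from 0.837 to 1.19. In light it was 1.67 ± 0.0984 (SD, n = 6), with samples from 1.58 to 1.85. All 6 light samples were above all 6 dark samples on this measure too, and the share of all probes that separate on it was not counted.

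**Figure D1:**
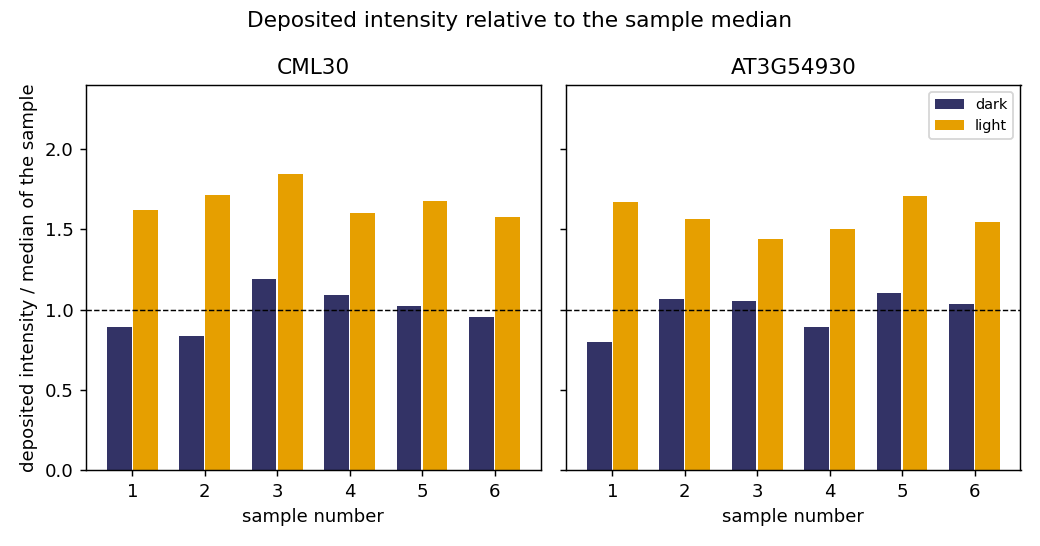
Deposited intensity of CML30 and AT3G54930 divided by the median of all probes in the same sample (y axis, no unit), for sample numbers 1 to 6 (x axis), dark and light side by side, 1 bar a sample and the dashed line at 1. All 6 light bars of CML30 (1.58 to 1.85) and of AT3G54930 (1.44 to 1.71) stand above all 6 dark bars of the same gene (at most 1.19 and 1.10). The share of all probes that separate on this measure was not counted.

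After quantile normalisation the log2 intensity of CML30 in the dark was -0.42, -0.53, 0.02, -0.12, -0.22 and -0.32 in samples 1 to 6. In light it was 0.38, 0.47, 0.60, 0.40, 0.44 and 0.36. The lowest light value exceeded the highest dark value by 0.34. Sample 3 was the highest of both groups, and the dark values spread more widely than the light values. The mean was -0.27 ± 0.20 in the dark and 0.44 ± 0.09 in light (SD, n = 6 each). The difference, light minus dark, was 0.71 ± 0.10 on the log2 scale (SE, 95% interval 0.50 to 0.92), a fold of 1.64 (1.41 to 1.90). That error takes the 6 samples as independent, and with the alike pairs as a random block the interval was 0.42 to 0.9998 (SE 0.13).

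AT3G54930, the PP2A subunit, showed the same order of the groups. Its deposited intensity in the dark was 0.523, 0.690, 0.689, 0.583, 0.689 and 0.649 in samples 1 to 6. In light it was 6.49 and 6.09 in samples 1 and 2, and 0.841, 0.871, 0.959 and 0.865 in samples 3 to 6. Every deposited light value lay above every deposited dark value. The share of all probes that did so was, again, not counted on this scale. Relative to the sample median it was 0.991 ± 0.119 in the dark, with samples from 0.799 to 1.10, and 1.57 ± 0.101 in light, with samples from 1.44 to 1.71 (SD, n = 6 each).

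The normalised log2 intensity of AT3G54930 in the dark was -0.58, -0.16, -0.18, -0.44, -0.12 and -0.20 in samples 1 to 6. In light it was 0.43, 0.34, 0.26, 0.32, 0.47 and 0.33. Dark 1 and dark 4 were the low samples, and the other 4 dark samples lay within a range of -0.20 to -0.12. The lowest light value was 0.38 above the highest dark value. The mean was -0.28 ± 0.19 in the dark and 0.36 ± 0.08 in light (SD, n = 6 each). Light minus dark was 0.64 ± 0.09 on the log2 scale (SE, 95% interval 0.44 to 0.84), a fold of 1.56 (1.35 to 1.79). With the alike pairs as a random block the interval was 0.28 to 0.998 (SE 0.16), and AT3G54930 was then not among the 15 probes called higher in light.

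**Figure D2:**
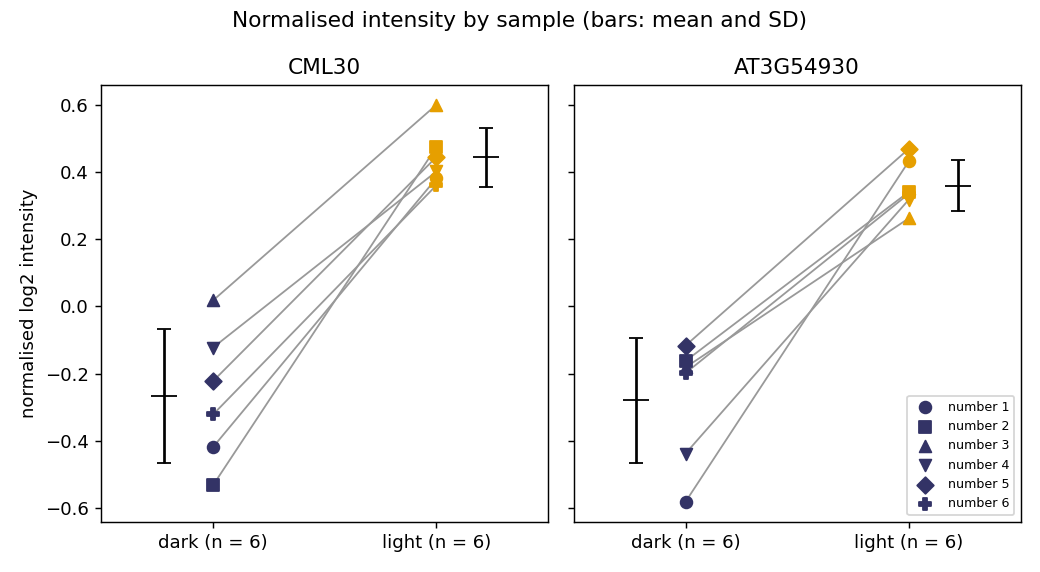
Normalised log2 intensity (y axis) of CML30 and AT3G54930 in each dark and light sample (x axis, n = 6 a group). Marker shapes give the sample number, grey lines join samples of the same number, and black bars are the group mean and SD. The light samples of CML30 (0.36 to 0.60) and of AT3G54930 (0.26 to 0.47) lie above all dark samples of the same gene.

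Over the whole array, 70 of 3381 tested probes (2.07%) passed a limma adjusted p of 0.05 in the direction of higher signal in light, and 26 (0.769%) passed in the other direction, 2.84% in all. The count of 26 was 0 without scaling, 1 with the alike pairs as a random block or averaged, and 72 with arrayWeights. Leaving out dark 3 gave 6. Of the 677 tested probes with 1 gene, 10 (1.48%) passed with the higher signal in light. Both genes were among the 70, and it was this contrast that they were picked by, so nothing is read from it. A complete separation of the groups with light on top was found for 85 of 3381 probes (2.51%), for 11 of the 677 with 1 gene (1.62%), and with light below dark for 69 of 3381 (2.04%). In size the changes of the pair were moderate: CML30 had the 133rd and AT3G54930 the 168th largest log2 rise of 3381 probes. Among the 677 they stood at 27 and 36 from the top. The median log2 change was 0.02 over all tested probes and 0.00 over those with 1 gene.

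**Figure D3:**
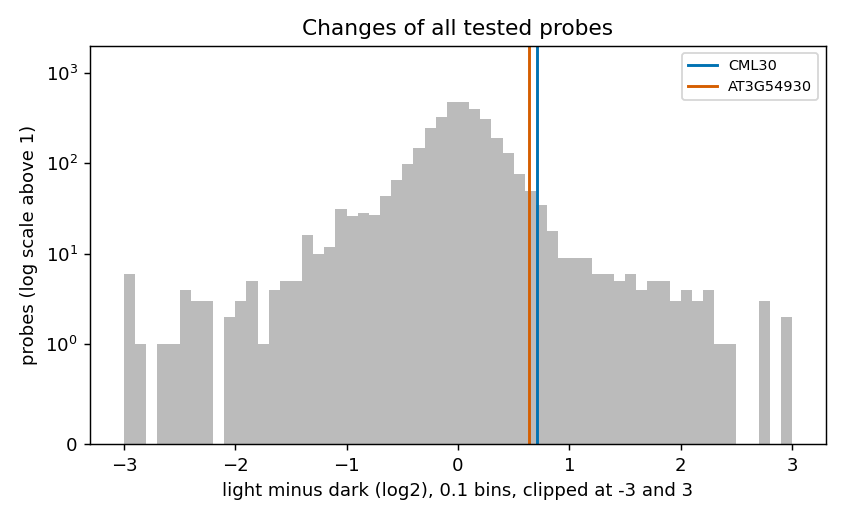
Number of tested probes (y axis, log scale above 1) by log2 change, light minus dark (x axis, bins 0.1 wide, values beyond -3 and 3 placed in the end bins). Vertical lines mark CML30 (0.71) and AT3G54930 (0.64), which stand on the right shoulder of the distribution and inside its tail.

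The samples were then compared number by number, because same-numbered samples deviated from their group means together across the array. The log2 change of CML30 was 0.80, 1.01, 0.58, 0.52, 0.67 and 0.68 for numbers 1 to 6. That of AT3G54930 was 1.01, 0.50, 0.44, 0.76, 0.59 and 0.53. Both genes were higher in light in 6 of 6 numbers, which follows from the complete separation of their groups. No change of either gene fell below 0.44. The numbers did not rank alike for the 2 genes: number 2 had the largest change of CML30 and the next to smallest of AT3G54930, and number 4 had the smallest of CML30 and the next to largest of AT3G54930. The change of CML30 minus that of AT3G54930 averaged 0.07 ± 0.27 (SD, n = 6) and was above 0 in 4 of 6 numbers, a difference smaller than its spread.

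**Figure D4:**
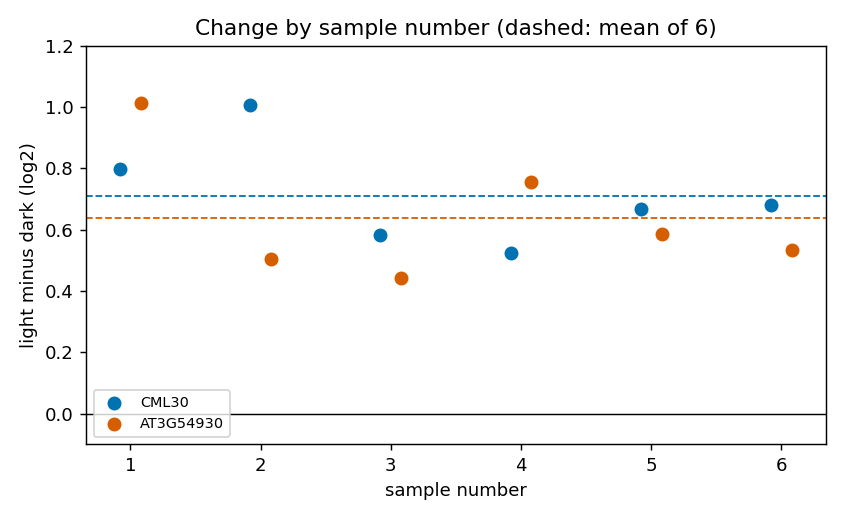
Log2 change, light minus dark (y axis), of CML30 and AT3G54930 for each sample number (x axis), 1 point a gene and number, with dashed lines at the mean of 6. All 12 points lie between 0.44 and 1.01, and the gene with the larger change differs from number to number.

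Averaged over the alike samples, the change of CML30 was 0.90 for the pair of numbers 1 and 2, 0.55 for the pair 3 and 4, and 0.67 for the pair 5 and 6. For AT3G54930 the 3 values were 0.76, 0.60 and 0.56. Of the 3 pairs, numbers 1 and 2 thus had the largest average change for both genes. For AT3G54930 this came from number 1 (1.01), since number 2 (0.50) had its next to smallest change. The SD of the changes of all tested probes was also largest in the pair of numbers 1 and 2, at 1.04, while the other 2 pairs had SDs of 0.55 and 0.59.

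The larger change of CML30 in numbers 1 and 2 came with low dark values, not with high light values. Dark 1 and dark 2 (-0.42 and -0.53) both lay under the range of dark 3 to 6 (-0.32 to 0.02). Light 1 and light 2 (0.38 and 0.47) lay within the range of light 3 to 6 (0.36 to 0.60). For AT3G54930, dark 1 (-0.58) lay under the range of dark 3 to 6 (-0.44 to -0.12) and dark 2 (-0.16) within it. Its light 1 and light 2 (0.43 and 0.34) also lay within the range of light 3 to 6 (0.26 to 0.47). Over all tested probes, light 1 and light 2 were both within the range of light 3 to 6 for 578 (17.1%) and both outside it for 2159 (63.9%). In the dark group the same shares were 25.3% and 43.4%, so the position of CML30 in dark 1 and dark 2 was a common one. Both genes were thus among the 17.1% on which light 1 and light 2 did not stand apart. Without light 1 and light 2, the log2 change was 0.72 ± 0.11 for CML30 and 0.63 ± 0.10 for AT3G54930 (SE). Without numbers 1 and 2 of both groups it was 0.61 ± 0.09 and 0.58 ± 0.09.

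The 2 genes differed in how far apart the alike dark samples lay. For CML30, dark samples 1 and 2 were 0.11 apart, samples 3 and 4 were 0.14 apart and samples 5 and 6 were 0.10 apart, within a group range of 0.55 over which the 6 values were spread evenly. For AT3G54930, samples 1 and 2 were 0.42 apart, nearly the whole group range of 0.46, samples 3 and 4 were 0.26 apart, and samples 5 and 6 were 0.08 apart. In light, partners were 0.08 to 0.20 apart for CML30 and 0.06 to 0.13 for AT3G54930. The dark SD exceeded the light SD in both genes, while over all tested probes the median SD was 0.24 in the dark and 0.30 in light, and 39.5% of probes had the smaller SD in light.

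Other genes of calcium signalling and of PP2A were mostly out of reach. Of 169 loci on 6 lists (calmodulin and calmodulin-like sensors, calcium-dependent kinases, calcineurin B-like sensors with their kinases, calcium transport, calmodulin-binding CAMTA factors, and PP2A subunits and regulators), 4 were on probes with 1 gene. Besides CML30 and AT3G54930 these were CML41 and AT5G25510. The words calmodulin, calcium, EF-hand and protein phosphatase in the RefSeq gene names found CML30 and CML41 and no further gene. This search missed AT3G54930 and AT5G25510, whose names there hold none of these words, so it cannot show that no other such gene was present. AT5G25510, another B' subunit of PP2A, was listed at 0 in 12 of 12 samples. Of the 2 listed genes tested on the calmodulin list, 1 was called higher in light (CML30, which was picked by this contrast) and 0 lower. No median is given over them, since 1 of the 2 was picked for its rise. On the PP2A list 1 of 1 tested gene was called, AT3G54930 itself.

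CML41 is a calmodulin-like protein known in Arabidopsis from plasmodesmata, the channels between plant cells, and it was not picked by its values. In the dark its normalised log2 intensity was 0.59, 0.52, 0.60, 0.55, 0.85 and 0.83 in samples 1 to 6. In light it was 1.15, 1.04, 0.40, 0.41, 0.61 and 0.48. Light 1 and light 2 were above all dark samples, whereas light 3 to 6 were each below the dark sample of the same number. The log2 change over all samples was 0.03 ± 0.15 (SE, 95% interval -0.29 to 0.35, limma adjusted p 0.946), the mean of pair values of 0.54, -0.17 and -0.29 in the same order of pairs. Its change was -0.18 ± 0.09 without light 1 and light 2 (limma adjusted p 0.307) and -0.23 ± 0.09 without numbers 1 and 2 (limma adjusted p 0.237). CML41 thus passed in neither direction, and its mean change had the other sign without light 1 and light 2, in which CML30 lay within the range of the other light samples.

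A further 1 probe carried 2 genes that are both on the calmodulin list, and its log2 change was -0.01 (95% interval -0.36 to 0.33, limma adjusted p 0.978). Likewise 1 probe carried 2 genes of the PP2A list, with a change of 0.24 ± 0.11 (SE, 95% interval -0.0018 to 0.48, limma adjusted p 0.267). Neither passed, and no gene is named from them. None of 6 genes known for an early response to light was on a probe with 1 gene. Of 14 marker loci of green tissue 1 was, the antenna gene LHB1B2, whose log2 change was 0.02 ± 0.11 (SE). That value averages pair changes of both signs: 0.30 for numbers 1 and 2, -0.06 for 3 and 4, and -0.19 for 5 and 6.

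Profiles over the 12 samples were compared with those of the other 632 probes with 1 gene and a value above 0 in every sample. The likeness is Pearson's r of normalised log2 intensity, a description over samples that share the light-dark step and the normalisation. Closest to CML30 was AT5G11550 (r = 0.899), followed by AT4G18180, a pectin lyase-like gene (r = 0.867), and by AT3G54930 (r = 0.865). Closest to AT3G54930 were AT4G18180 (r = 0.941), AT2G44760 (r = 0.895) and CML30 (r = 0.865). Each gene of the pair thus held rank 3 on the list of the other. Both were picked for a rise in light, which by itself raises r between them, so nothing is read from these ranks.

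What the 2 genes had in common was the step between the groups, by which both were picked. After the group means were taken out, r between CML30 and AT3G54930 was 0.03 over the 12 samples. The deviations of AT3G54930 had r = 0.556 with those of AT4G18180 and r = 0.518 with those of AT2G44760. Those of CML30 had r = 0.363 with AT5G11550 and r = -0.021 with AT4G18180. AT4G18180, AT2G44760 and AT5G11550 were picked by r over the same samples. The deviations enter that r, so the choice favours a high value here. The steps of these 3 genes differed in size: the log2 change was 1.47 ± 0.17 for AT4G18180, 0.37 ± 0.07 for AT5G11550 and 0.34 ± 0.08 for AT2G44760 (SE). In AT4G18180 the dark mean was -1.59 ± 0.28 and the light mean -0.12 ± 0.33 (SD, n = 6 each).

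**Figure D5:**
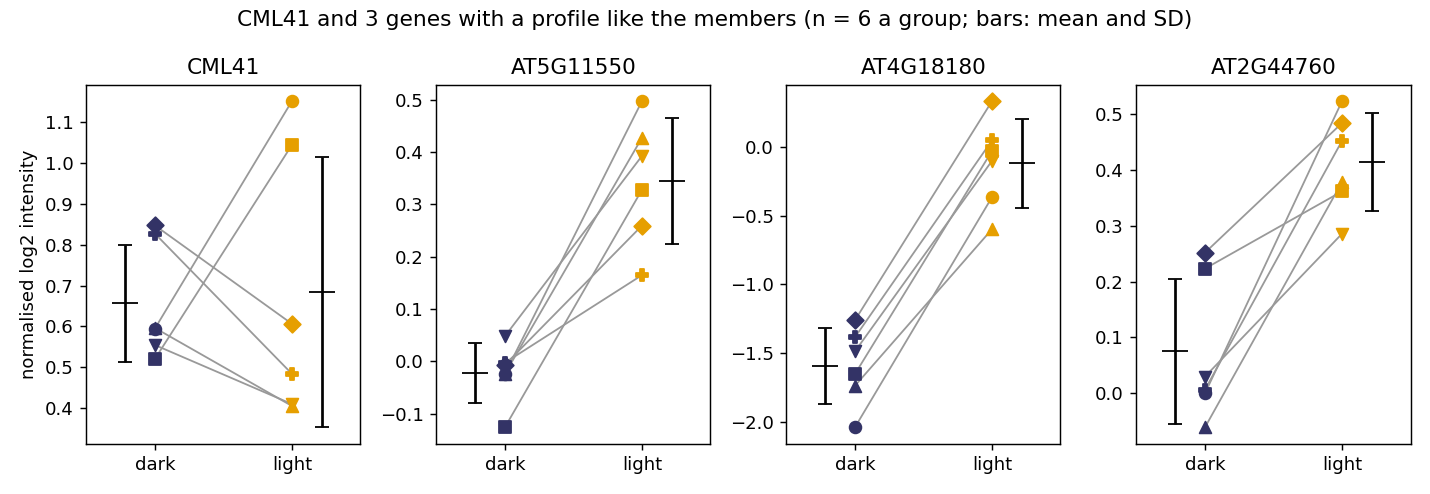
Normalised log2 intensity (y axis, own scale in each panel) of CML41 and of AT5G11550, AT4G18180 and AT2G44760 in each dark and light sample (x axis, n = 6 a group). Markers give the sample number (circle 1, square 2, triangle 3, inverted triangle 4, diamond 5, plus 6), lines join the same number, and bars are mean and SD. CML41 is higher in light in numbers 1 and 2 and lower in the other 4, while the lines of the other 3 genes all run upward.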

How the data were processed

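The deposited table holds 1 relative intensity a probe and sample, on a linear scale. Per the labels, total RNA was measured on arrays. The sources used here do not say how the authors scanned, background-corrected and scaled the deposited intensity values, and name no genome build. Groups and numbers came from the sample titles, 0 columns were left unmapped, and the number of arrays limits the precision.

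Of 3439 probes, 58 listed at 0 in every sample were left out. Other zeros were replaced by the sample's smallest value above 0, log2 was taken and samples were quantile normalised. Light and dark were compared over 3381 probes in R 4.3.3 with the limma package, version 3.58.1 (moderated by eBayes, a two-sided test without covariates, Benjamini-Hochberg adjustment, threshold 0.05). Standard errors and 95% intervals come from this fit. It was checked on simulated data with independent samples, which cannot show how it does where samples are alike in pairs. The labels name no separate plants, so the spread behind the p-values may be purely technical. Of the single-gene probes, 690 of 692 matched the RefSeq table of TAIR10.1, used for names only.

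Same-numbered dark and light samples deviated together (r across probes 0.337 to 0.491, each best with its own number), and the numbers were taken as pairing the samples across groups. The members and gene lists were chosen with earlier results of these data known. Named genes are the 2 members, listed genes on single-gene probes, and the 3 genes most like each member. The alternatives tried are given in the closing section. No probe, promoter or protein sequence was used here, and planned promoter motifs were not searched.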

Additional observations from a re-analysis of the deposited data

How the results depend on the processing

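The direction of CML30 and AT3G54930 was the same in all 25 alternatives to the fit reported. The groups of both genes did not overlap, so leaving out or weighting samples could not reverse it, and nothing is read from it. Without scaling their log2 changes were 1.50 and 1.42, where the median over all probes was 0.78 because light 1 and light 2 kept their higher medians. Relative to that median the changes were 0.73 and 0.64. With a pseudocount of 0.223 they were 0.57 and 0.51. Leaving out 1 sample at a time gave 0.66 to 0.77 for CML30 and 0.58 to 0.67 for AT3G54930. With the sample number as a replicate block the changes stayed 0.71 and 0.64, with standard errors of 0.08 and 0.09, and the block changed no call of CML30, AT3G54930, CML41 or LHB1B2. With the alike pairs as a random block the standard errors grew to 0.13 and 0.16. CML30 was among the called probes in 24 of 26 fits, failing without scaling and with pairs averaged, and AT3G54930 in 23, failing also with the random block. Nothing is read from these calls, since they chose the genes.

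The number of probes called was 96, of which 70 were higher in light. It was 2 (2 higher) without scaling, 16 (15 higher) with pairs as a random block, 1 (0 higher) with pairs averaged and 174 (102 higher) with arrayWeights. Averaging leaves fewer degrees of freedom, and otherwise the cause was not tested. Without single samples it ran from 46 (without dark 3) to 86, and the higher count from 40 to 61. It was 57 without dark 4, 60 without light 5 and 58 without light 6. The lower count of 26 was 0 without scaling, 1 with the random block or with pairs averaged, 72 with arrayWeights, 42 with the pseudocount and 40 without light 1 and light 2. Dark 3 left out gave 6 lower probes and dark 4 left out gave 12. Omitting light 2 gave 17 and omitting light 5 gave 16, while dark 2 and light 6, each omitted alone, gave 14. The replicate block gave 116, of which 81 were higher. CML41 was the only other gene of the calcium and PP2A lists tested, and it was called in 0 of the 26 limma fits (1 had an unadjusted p under 0.05). Normalising anew without light 1 and light 2 was chosen after the data were seen and gave 0.71 and 0.62 for the pair. Signal over background is unknown.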
